A study of Homo sapiens with 16 samples.

Results

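The 38 genes described here carry glucose into the cell, break it down to pyruvate, turn pyruvate into lactate or admit it to the mitochondrion, and link glucose to glycogen. They were chosen by name from this pathway, and each value is the sum of the transcripts of a gene in TPM, a unit that allows for transcript length and scales every library to the same total. They are 38 of 34451 genes with summed values, of which 19356 are protein-coding. The libraries come from the BJ human foreskin fibroblast model at 4 stages. Primary BJ cells carry no introduced gene, immortalized cells (BJ hTERT+) carry the catalytic subunit of telomerase, transformed cells (BJ hTERT+ SV40+) also carry SV40, and metastasizing cells (BJ hTERT+ SV40+ Ras-G12V) also carry a mutated Ras. All lines were grown in serum-supplemented medium for 6 passages, at atmospheric or at 3% oxygen, so that 8 groups of 2 parallel plates make 16 libraries. The stages are successive derivatives of a single fibroblast line, so the 2 plates of a group are replicates of 1 line, and p-values measure the spread between such plates. The expressed Ras was checked through HRAS, which stood at 94.6 and 78.1 TPM in metastasizing and 120 and 99.0 TPM in transformed cells at atmospheric oxygen, so its summed level did not mark the metastasizing stage there, and at 143 and 772 TPM in the metastasizing libraries at 3% oxygen. TERT was at most 0.543 TPM in primary libraries and at least 31.6 TPM in all others.

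Glycolysis splits glucose into pyruvate in the cytosol and yields ATP without oxygen. Lactate dehydrogenase then reduces pyruvate to lactate and regenerates NAD+, while the pyruvate dehydrogenase complex feeds pyruvate to the tricarboxylic acid cycle inside mitochondria, a step that pyruvate dehydrogenase kinases switch off. Many of these genes, HK2, PGK1, LDHA and PDK1 among them, are textbook targets of the hypoxia inducible transcription factors, which are stable when oxygen is low.

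All 8 fibroblast markers on the list checked were above 1 TPM in every library, with a summed level of 3852 to 18097 TPM per library, lowest in the transformed and metastasizing libraries, and S100A4 went from 4451 and 4270 TPM in immortalized to 23.9 and 28.7 TPM in transformed cells at atmospheric oxygen. Of markers of other cells, KRT19 stood at 143 to 203 TPM in primary libraries and at 0.0637 to 1.68 TPM in immortalized ones, the other four epithelial markers reached at most 2.80 TPM in any library, and CD68, which is not limited to leukocytes, stood at 42.4 to 162 TPM, while CD3E and TYR were listed at 0 throughout and every endothelial marker stayed under 1 TPM. The 10 proliferation genes listed summed to 763 to 2206 TPM per library. At 3% oxygen 4 of the 10 rose in primary cells (8.36% of all genes did) and 8 of the 10 in immortalized cells (8.92%) at an adjusted p under 0.01, and none passed in transformed or metastasizing cells. Their sum went from 763 and 860 TPM to 1498 and 1396 TPM in immortalized cells. The part of growth rate in the results below was not tested. Depth is unknown because TPM hold no read counts. In bulk RNA, fewer cells of a kind and less RNA per cell cannot be told apart.

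At 3% oxygen every step from glucose import to enolase had at least 1 member that rose in primary cells. Fewer members moved beyond 2-fold in immortalized and transformed cells, and none rose that far in metastasizing cells. Calls required a change beyond 2-fold and an adjusted p below 0.01, with p-values adjusted over all protein-coding genes tested, and a gene was tested when 1 of the compared groups averaged at least 1 TPM. In primary cells 11 of 36 tested members were called, against 5.30% of all 12184 genes tested, and 10 were higher (2.78% of all genes) and 1 lower (2.52%). In immortalized cells 4 of 36 were called, against 4.91% of all genes, and each was higher (2.13%). In transformed cells 5 of 37 were called, against 7.48%, and each was higher (4.90%). In metastasizing cells 2 of 37 were called, against 7.66%, and both were lower (4.60%). At the same adjusted p and any fold size, 21 members passed in primary cells (background 12.8%). Immortalized cells had 11 such members (13.4%), transformed cells 16 (19.5%) and metastasizing cells 6 (14.3%). The share of members called lay below the background in metastasizing cells and was therefore no result about these genes. The median log2 change of the tested members was 0.61, 0.39, 0.24 and -0.05 in the order of the stages, beside 0.08, 0.11, 0.01 and -0.13 over all genes tested. Rescaling the libraries by median ratios brought the medians of all genes to -0.02, -0.01, 0.01 and -0.0013 and those of the members to 0.50, 0.27, 0.24 and 0.08, so the sign of the last turned.

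**Figure D1:**
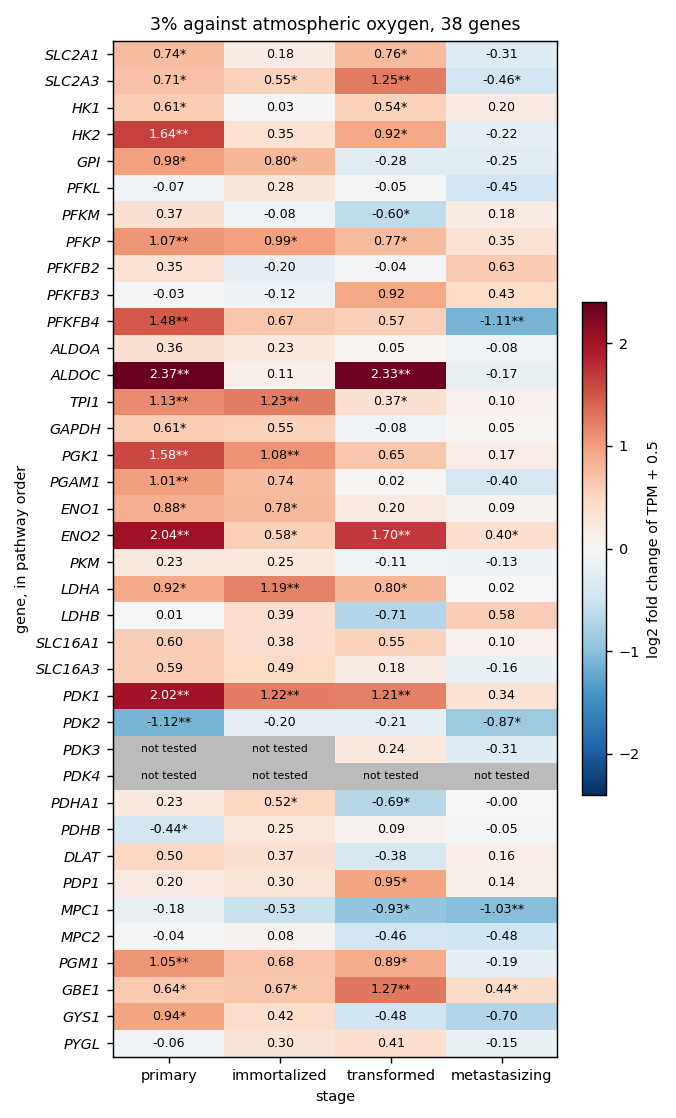
Fitted log2 fold change of TPM + 0.5 at 3% against atmospheric oxygen for the 38 genes (rows, in pathway order) in the 4 stages (columns), from 2 libraries a group; 2 asterisks mark a call, 1 asterisk an adjusted p under 0.01 below 2-fold. The primary column holds 10 called increases, PDK1 is called in 3 stages, and both calls of the metastasizing stage are decreases (PFKFB4 and MPC1).

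Of the 38 members, 15 were called in at least 1 stage, 25 passed at any fold size in at least 1 stage, and 13 never passed. The same counts were not made over all genes, so no background stands beside them and they are descriptions only. PDK1 was called in 3 stages, and PFKFB4, ALDOC, TPI1, PGK1 and ENO2 in 2 stages each. SLC2A3, ENO2 and GBE1 passed at any fold size in all 4 stages, SLC2A3 with a decrease in the last. Single tests of 2 against 2 libraries cannot go below a two-sided exact p of 0.333, so all tests below pool the spread over the 8 groups. When only the 4 libraries of a stage were fitted, the primary calls of PFKP, PGK1 and PDK2 (adjusted p = 0.0127, 0.0108 and 0.0111) and the transformed call of PDK1 (0.0104) missed the threshold.

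Of the glucose transporters, SLC2A3, which encodes the high-affinity GLUT3, was called. In transformed cells SLC2A3 stood at 21.4 and 23.5 TPM at atmospheric and 54.7 and 53.4 TPM at 3% oxygen. Both 3% libraries lay above both atmospheric ones (log2 fold change 1.25 ± 0.10 SE, adjusted p = 2.59e-05). It also rose in primary cells (from 18.6 and 17.8 TPM to 30.1 and 29.9 TPM, log2 0.71, adjusted p = 0.000872) and in immortalized cells (from 23.1 and 20.8 TPM to 33.1 and 31.4 TPM, log2 0.55, adjusted p = 0.00335). In metastasizing cells, where its atmospheric level was already 51.4 and 60.8 TPM, it fell to 39.96 and 40.99 TPM (log2 -0.46, adjusted p = 0.00786). Pseudogenes named after SLC2A3 reached at most 7.69 TPM in a library and 19.2% of its level, and reads could be split between the gene and these copies, so its values are uncertain to that extent. SLC2A1, the more abundant transporter GLUT1, passed without reaching 2-fold in primary (from 105 and 118 TPM to 194 and 179 TPM, adjusted p = 0.00828) and transformed cells (from 96.4 and 96.7 TPM to 153 and 176 TPM, adjusted p = 0.00513), and its log2 changes of 0.18 in immortalized and -0.31 in metastasizing cells did not pass.

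Hexokinases trap glucose as glucose 6-phosphate, and HK2, the inducible isozyme, had the larger fold increase of the pair in primary and transformed cells. In primary cells HK2 was at 12.9 and 13.01 TPM at atmospheric and 45.3 and 37.9 TPM at 3% oxygen. Both 3% libraries stood well above, at 3.12-fold by the fit (log2 fold change 1.64 ± 0.17 SE, adjusted p = 0.000104). In transformed cells it rose from 21.1 and 20.3 TPM to 44.1 and 35.7 TPM (log2 0.92, adjusted p = 0.00206), whereas the changes in immortalized (log2 0.35) and metastasizing cells (log2 -0.22) did not pass. HK1, the housekeeping isozyme, was the larger of the pair in every library, at 91.5 to 245 TPM, and rose by 0.61 on the log2 scale in primary cells (adjusted p = 0.00433) and by 0.54 in transformed cells (adjusted p = 0.00558).

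GPI, which turns glucose 6-phosphate into fructose 6-phosphate, rose in primary (from 162 and 152 TPM to 308 and 310.0 TPM, log2 0.98, adjusted p = 0.00049) and immortalized cells (from 139.9 and 145 TPM to 249 and 248 TPM, log2 0.80, adjusted p = 0.00137) and did not pass after transformation, where its log2 changes were -0.28 and -0.25. Of the phosphofructokinases, the committed step of glycolysis, PFKP responded in the first 3 stages. In primary cells it was at 106 and 126 TPM at atmospheric and 235 and 251 TPM at 3% oxygen, and the groups were apart (log2 fold change 1.07 ± 0.11 SE, adjusted p = 0.000132). The change came to 0.99 in immortalized cells (from 50.6 and 59.2 TPM to 106 and 112 TPM, adjusted p = 0.000231) and 0.77 in transformed cells (from 171 and 179 TPM to 303 and 292 TPM, adjusted p = 0.000629). The muscle isozyme PFKM fell in transformed cells (from 62.4 and 65.6 TPM to 48.00 and 36.8 TPM, log2 -0.60, adjusted p = 0.00436) and passed in no other stage. The liver isozyme PFKL passed in none, with replicates as far apart as 25.5 and 60.2 TPM in metastasizing cells at 3% oxygen.

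The bifunctional PFKFB enzymes set the level of fructose 2,6-bisphosphate, the strongest activator of phosphofructokinase. PFKFB4 moved in opposite directions at the 2 ends of the model. Primary cells held 7.85 and 8.39 TPM at atmospheric and 23.1 and 23.97 TPM at 3% oxygen, an increase in both libraries (log2 fold change 1.48 ± 0.26 SE, adjusted p = 0.0022). In metastasizing cells it was at 30.98 and 29.1 TPM at atmospheric and 9.17 and 20.1 TPM at 3% oxygen, lower in both 3% libraries, which themselves differed by more than 2-fold (log2 fold change -1.11 ± 0.26 SE, adjusted p = 0.00889). The primary call was lost when any single primary library was left out, where the log2 change was 1.44 to 1.53. It was also lost with only protein-coding transcripts and with only the leading transcript. The metastasizing call was lost under 7 of 11 other settings, and its log2 change ranged from -1.66 to -0.57 without 1 library. PFKFB3, the other hypoxia-responsive family member, did not pass in any stage, but its result in primary cells rested on 1 library. Its level in 1 primary library at atmospheric oxygen was 102 TPM against 19.96 TPM in the other, because a single transcript, PFKFB3-207, was listed at 80.6 TPM in the first and at 0 in the second. Without the first, replicate b, PFKFB3 in primary cells went from 19.96 TPM to 45.6 and 43.3 TPM (log2 fold change 1.13 ± 0.14 SE, adjusted p = 0.000831), and without the other, replicate a, the log2 change was -1.20 (adjusted p = 0.0007), in fits that take the lone library to vary like the other groups. Its leading transcript, PFKFB3-205, was at 13.9 and 15.6 TPM at atmospheric and 28.5 and 27.8 TPM at 3% oxygen in primary cells (log2 0.91, adjusted p = 0.00187 when each gene was represented by its leading transcript) and went from 16.5 and 14.4 TPM to 31.7 and 29.5 TPM in transformed cells (log2 0.97, adjusted p = 0.000873). In transformed cells the whole gene went from 22.3 and 21.5 TPM to 42.4 and 41.8 TPM (log2 0.92, adjusted p = 0.181 with the spread pooled and 0.00701 when only these 4 libraries were fitted). PFKFB2 ranged over 1.45 to 4.38 TPM and passed nowhere.

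ALDOC, the minor aldolase of these cells, had the largest log2 increase among the members in both primary and transformed cells. In primary cells its level was 8.17 and 6.72 TPM at atmospheric and 38.03 and 42.6 TPM at 3% oxygen, a fitted 5.15-fold (log2 fold change 2.37 ± 0.34 SE, adjusted p = 0.000726). In transformed cells it was at 10.7 and 12.8 TPM at atmospheric and 75.5 and 48.8 TPM at 3% oxygen (log2 fold change 2.33 ± 0.34 SE, adjusted p = 0.000541). In immortalized cells the 2 oxygen levels overlapped, at 29.03 and 35.4 TPM at atmospheric and 32.2 and 37.5 TPM at 3% oxygen, and in metastasizing cells the 3% libraries spanned both atmospheric ones, at 72.1 and 67.1 TPM at atmospheric and 39.1 and 97.1 TPM at 3% oxygen. ALDOA, the main aldolase, was far more abundant at 985 to 2181 TPM and did not pass in any stage as a whole. Its leading transcript, ALDOA-216, held only 30.2% of the mean TPM of the gene. That transcript went from 383 and 357 TPM to 570.0 and 523 TPM in primary cells (log2 0.56, adjusted p = 0.00431) and from 359 and 388 TPM to 568 and 543 TPM in immortalized cells (log2 0.57, adjusted p = 0.0041). In metastasizing cells it went from 384 and 381 TPM to 502 and 578 TPM (log2 0.49, adjusted p = 0.00806). Another transcript, ALDOA-207, was listed at 0 in 1 library and at 80.2 or 179.8 TPM in its replicate in 2 groups.

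TPI1, which interconverts the triose phosphates, rose by more than 2-fold in the stages without SV40. Primary cells held 516 and 507 TPM at atmospheric and 1135 and 1112 TPM at 3% oxygen (log2 fold change 1.13 ± 0.09 SE, adjusted p = 2.36e-05). Immortalized cells held 520.2 and 533 TPM at atmospheric and 1250 and 1221 TPM at 3% oxygen (log2 fold change 1.23 ± 0.09 SE, adjusted p = 1.64e-05). The 4 libraries at 3% oxygen in these stages lay above all 4 atmospheric ones. In transformed cells the increase was from 994 and 1026 TPM to 1302 and 1313 TPM (log2 0.37, adjusted p = 0.00685), and in metastasizing cells it did not pass (log2 0.10).

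PGK1 makes the first ATP of the pathway. Primary cells held 66.7 and 84.02 TPM at atmospheric and 243 and 208 TPM at 3% oxygen (log2 fold change 1.58 ± 0.19 SE, adjusted p = 0.000295). In immortalized cells it was at 87.2 and 106 TPM at atmospheric and 197 and 209.5 TPM at 3% oxygen (log2 fold change 1.08 ± 0.19 SE, adjusted p = 0.00244), and the change of 0.65 in transformed cells did not pass (adjusted p = 0.023). The immortalized call was lost without any 1 of its libraries except replicate b at atmospheric oxygen, with adjusted p from 0.0176 to 0.0251. Most of the PGK1 values, 77.0% of the mean TPM, belonged to PGK1-205, a transcript without a defined coding sequence. The coding transcript PGK1-201 went from 17.9 and 18.0 TPM to 52.1 and 49.0 TPM in primary cells. In immortalized cells PGK1-201 went from 20.4 and 20.1 TPM to 43.5 and 42.7 TPM. GAPDH, which precedes PGK1 and is often used as a reference gene, was the most abundant member at 4067 to 7437 TPM and itself rose in primary cells (from 4067 and 4173 TPM to 6652 and 5931 TPM, log2 0.61, adjusted p = 0.00858).

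PGAM1, the phosphoglycerate mutase, was at 435 and 460.3 TPM at atmospheric and 918 and 886 TPM at 3% oxygen in primary cells, close to 2-fold (log2 fold change 1.01 ± 0.22 SE, adjusted p = 0.00718), a call that did not hold without any 1 of the 4 libraries (adjusted p from 0.0316 to 0.0489). Its log2 change was 0.74 in immortalized cells (adjusted p = 0.0308) and 0.02 in transformed cells. The enolases form 2-phosphoglycerate into phosphoenolpyruvate. ENO1, the general isozyme, rose in primary (from 1545 and 1599 TPM to 2965 and 2827 TPM, log2 0.88, adjusted p = 5.32e-05) and immortalized cells (from 1618 and 1707 TPM to 2876 and 2836 TPM, log2 0.78, adjusted p = 0.000127) and did not pass in the other stages.

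ENO2, known as the neuronal enolase, had the smallest adjusted p of the members in primary and transformed cells. In primary cells the level was 11.3 and 11.5 TPM at atmospheric and 50.3 and 46.6 TPM at 3% oxygen, a fitted 4.12-fold (log2 fold change 2.04 ± 0.09 SE, adjusted p = 6.53e-07). In transformed cells it was at 34.7 and 38.4 TPM at atmospheric and 123 and 116 TPM at 3% oxygen (log2 fold change 1.70 ± 0.09 SE, adjusted p = 2.05e-06). It rose less in immortalized (from 15.2 and 14.4 TPM to 22.1 and 22.4 TPM, log2 0.58, adjusted p = 0.00122) and metastasizing cells (from 63.5 and 58.96 TPM to 80.8 and 80.7 TPM, log2 0.40, adjusted p = 0.00815). In each stage both libraries at 3% oxygen lay above both atmospheric ones.

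**Figure D2:**
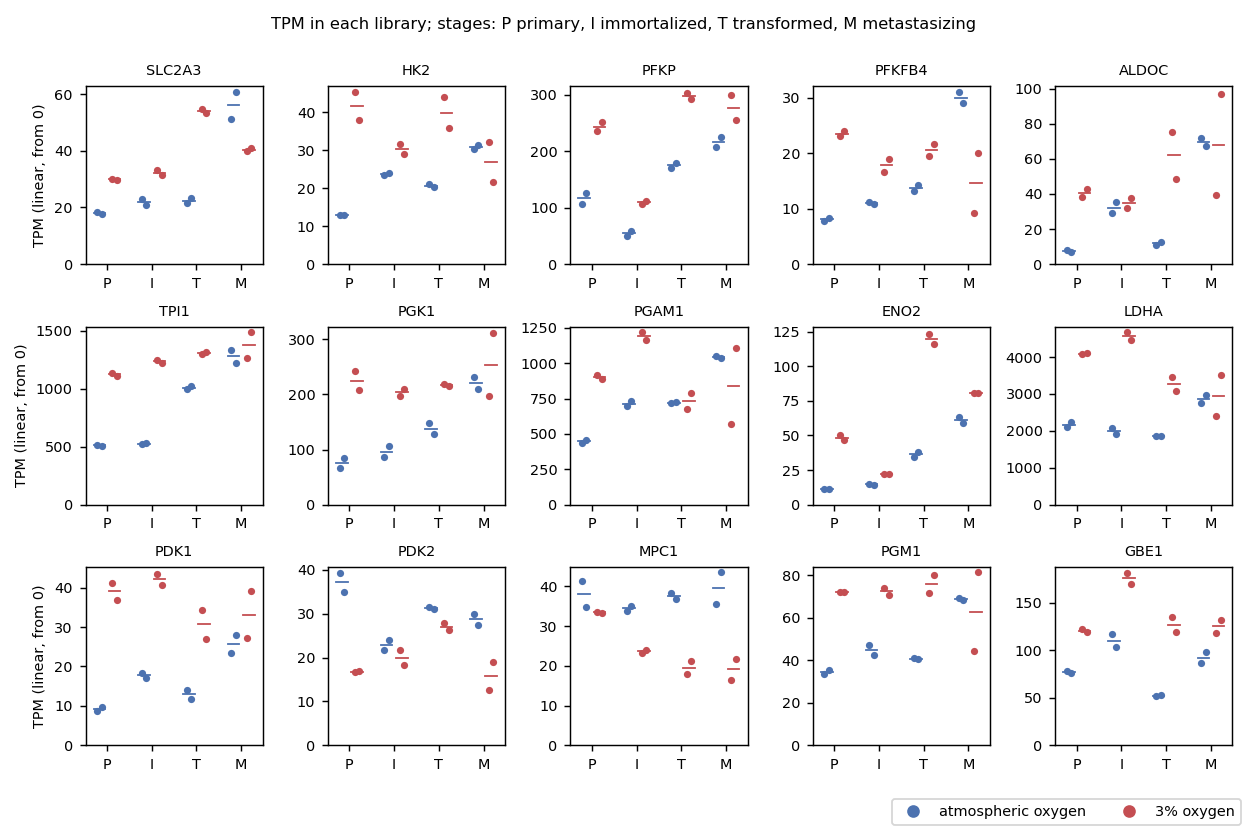
TPM (linear axis from 0) in each of the 16 libraries for the 15 members called in at least 1 stage; each point is a library, bars are the mean of 2, blue is atmospheric and red 3% oxygen, and P, I, T and M are the primary, immortalized, transformed and metastasizing stages. ENO2 at 3% oxygen is above its atmospheric level in every stage, MPC1 is lower at 3% oxygen in transformed and metastasizing cells, and the 2 red points of the metastasizing stage lie far apart for ALDOC and PGM1.

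HK2, ENO2 and ALDOC rose and still held the minor share of their steps. HK2 made up 12.3 and 11.4% of hexokinase TPM in primary cells at atmospheric and 23.03 and 21.1% at 3% oxygen. ENO2 went from 0.967 and 1.03% to 2.95 and 2.67% of enolase TPM in transformed cells, so ENO1 held nearly all of it at either oxygen level. ALDOC similarly went from 0.722 and 0.955% to 5.31 and 3.04% of aldolase TPM. PFKP and LDHA rose from the larger share. PFKP held 60.03 and 61.2% of phosphofructokinase TPM in transformed cells and 76.1 and 77.4% at 3% oxygen, and LDHA went from 76.4 and 78.2% to 86.8 and 86.2% of lactate dehydrogenase TPM in primary cells. The 13 enzymes from GPI to PKM together took 1.01 and 1.07% of all TPM in primary cells at atmospheric and 1.70 and 1.54% at 3% oxygen, and 1.19 and 1.32% against 1.86 and 1.79% in immortalized cells. In transformed cells the sums were level, at 1.54 and 1.56% against 1.61 and 1.63%. In metastasizing cells they overlapped, at 1.80 and 1.63% against 1.51 and 1.98%. These shares are descriptions with no test.

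**Figure D3:**
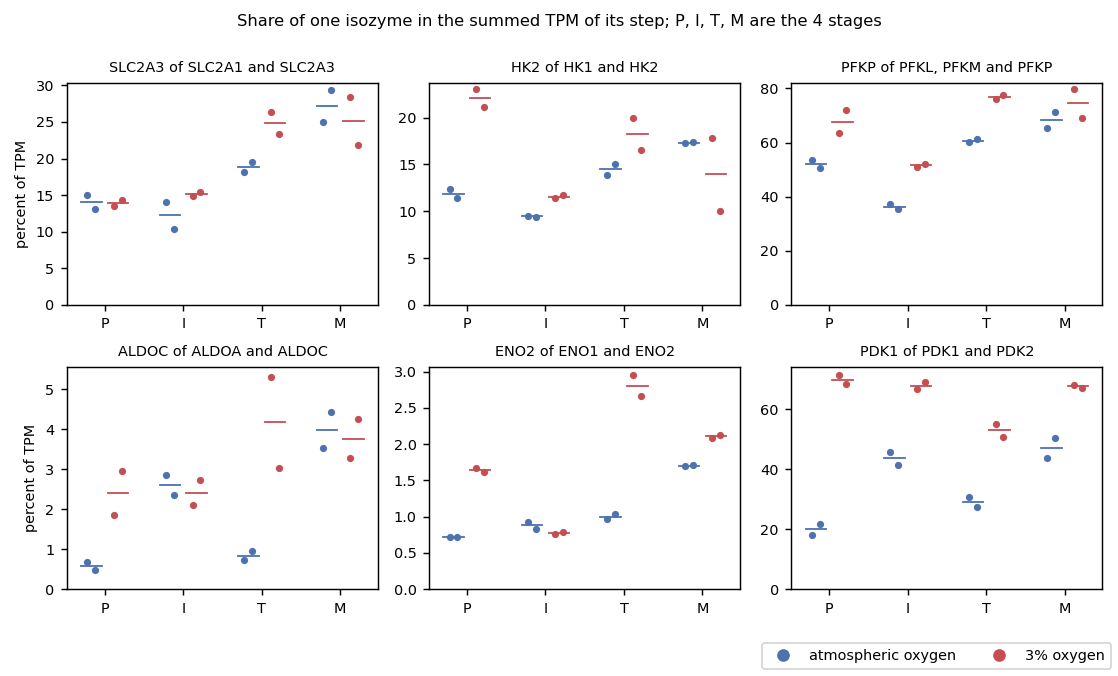
Share of the summed TPM of a step held by 1 isozyme (percent, linear axis from 0) in each library, for 6 steps; points are libraries, bars the mean of 2, blue is atmospheric and red 3% oxygen. The share of PDK1 is higher at 3% oxygen in all 4 stages, and ENO2 stays under 3% of enolase TPM throughout.

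Pyruvate kinase, encoded by PKM (chromosome 15, minus strand), makes pyruvate and the second ATP of the pathway, and its pre-mRNA holds a pair of mutually exclusive exons that give the M1 and M2 enzymes. The gene did not pass at 3% oxygen in any stage, with log2 changes of 0.23, 0.25, -0.11 and -0.13. The 2 exons are shown because they decide which form a transcript encodes. Each is 167 bases long, they lie at chr15:72495363-72495529 (M1) and chr15:72494795-72494961 (M2) in GRCh37, and 105 of their 167 positions are identical (62.9%). Capitals mark the 62 positions where they differ.
M1 exon: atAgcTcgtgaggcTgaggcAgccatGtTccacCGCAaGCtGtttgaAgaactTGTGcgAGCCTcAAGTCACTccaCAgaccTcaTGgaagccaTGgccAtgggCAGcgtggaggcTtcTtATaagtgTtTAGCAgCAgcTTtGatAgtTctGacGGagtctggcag
M2 exon: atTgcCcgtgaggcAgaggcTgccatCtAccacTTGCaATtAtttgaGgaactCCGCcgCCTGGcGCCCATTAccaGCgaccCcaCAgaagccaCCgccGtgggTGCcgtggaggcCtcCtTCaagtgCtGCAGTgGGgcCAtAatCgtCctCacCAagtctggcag
Transcripts with the M2 exon, 3 in number, held 82.9% to 96.1% of PKM TPM in the 16 libraries. PKM-202 (ENST00000335181) alone held 77.6% to 93.7%. The 5 transcripts with the M1 exon held 0.489% to 10.5%. PKM-204 (ENST00000561609) had the highest mean of these, 97.8 TPM, but stood at 0 and 1.92 TPM in primary cells at atmospheric oxygen, and PKM-201 (ENST00000319622) ranged over 3.34 to 12.5 TPM. In primary cells the M1 class was at 9.35 and 11.5 TPM at atmospheric and 17.8 and 176 TPM at 3% oxygen, where only 1 replicate stood apart. In immortalized cells it was at 265 and 60.1 TPM against 324 and 383 TPM. None of the 81 pairs of transcript and stage tested, over 21 PKM transcripts, was called at the transcript level with limma, where 2.29%, 1.20%, 2.80% and 1.69% of all transcripts were called in the 4 stages. Of the 81 pairs, 17 had an unadjusted p under 0.05, and the smallest adjusted p was 0.0681. No other tool was run on them.

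**Figure D4:**
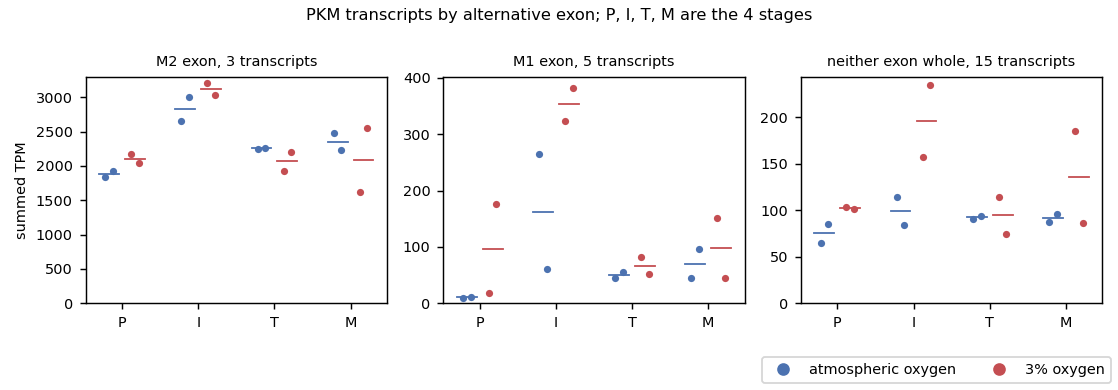
Summed TPM (linear axis from 0) of PKM transcripts that hold the M2 exon, the M1 exon or neither exon whole, in each library; points are libraries, bars the mean of 2, blue is atmospheric and red 3% oxygen. The M2 class lies between 1626 and 3214 TPM and the M1 class between 9.35 and 383 TPM, with replicates of the M1 class far apart in some groups.

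Among the genes of lactate formation and export, LDHA rose in primary, immortalized and transformed cells. Its subunit favours the reduction of pyruvate, and RNA levels do not measure lactate itself. In immortalized cells LDHA was at 2079 and 1924 TPM at atmospheric and 4686 and 4452 TPM at 3% oxygen (log2 fold change 1.19 ± 0.15 SE, adjusted p = 0.000346). It also rose in primary (from 2095 and 2243 TPM to 4092 and 4100 TPM, log2 0.92, adjusted p = 0.0014) and transformed cells (from 1869 and 1871 TPM to 3450 and 3088 TPM, log2 0.80, adjusted p = 0.00209), each library at 3% oxygen above both at atmospheric oxygen. In metastasizing cells the log2 change was 0.02, with libraries at 2751 and 2984 TPM at atmospheric and 2397 and 3514 TPM at 3% oxygen. LDHB, the subunit that favours lactate oxidation, did not pass in any stage. A single transcript without a coding sequence, LDHB-207, was listed at 0 in 1 library and at 250.8 to 1149 TPM in its replicate in 4 groups, and LDHB was higher in the same library each time. The lactate exporters SLC16A1 (MCT1) and SLC16A3 (MCT4) did not pass in any stage. SLC16A1 levels did not overlap between the oxygen levels in primary (from 49.2 and 46.3 TPM to 69.4 and 75.8 TPM, adjusted p = 0.0313), transformed (from 54.5 and 56.1 TPM to 83.7 and 78.2 TPM, adjusted p = 0.0374) and immortalized cells (from 46.5 and 44.5 TPM to 60.8 and 57.99 TPM, adjusted p = 0.141), yet the differences missed the threshold. SLC16A3 ranged over 76.4 to 272 TPM with replicates as far apart as 110.4 and 196 TPM in metastasizing cells at 3% oxygen.

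PDK1, a kinase that phosphorylates and inactivates pyruvate dehydrogenase, was the member called in most stages. In primary cells its level was 8.67 and 9.79 TPM at atmospheric and 41.3 and 36.8 TPM at 3% oxygen, a fitted 4.07-fold (log2 fold change 2.02 ± 0.18 SE, adjusted p = 4.88e-05). In immortalized cells it was at 18.4 and 17.1 TPM at atmospheric and 43.5 and 40.7 TPM at 3% oxygen (log2 fold change 1.22 ± 0.18 SE, adjusted p = 0.000928). In transformed cells it was at 13.96 and 11.9 TPM at atmospheric and 34.4 and 26.9 TPM at 3% oxygen (log2 fold change 1.21 ± 0.18 SE, adjusted p = 0.000649). In all 3 stages the oxygen levels did not overlap, and the immortalized call was lost without replicate b at atmospheric or replicate a at 3% oxygen (adjusted p from 0.0104 to 0.0122). In metastasizing cells it was at 23.4 and 27.97 TPM at atmospheric and 27.2 and 39.05 TPM at 3% oxygen, which overlapped and did not pass (log2 0.34, adjusted p = 0.182).

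PDK2, another kinase of the complex, moved the other way. Primary cells held 39.3 and 35.04 TPM at atmospheric and 16.6 and 17.01 TPM at 3% oxygen, lower by more than 2-fold (log2 fold change -1.12 ± 0.17 SE, adjusted p = 0.000924). That call was lost without replicate a at atmospheric oxygen (adjusted p = 0.0125). It fell again in metastasizing cells (from 30.02 and 27.5 TPM to 12.6 and 19.04 TPM, log2 -0.87, adjusted p = 0.00349), and its log2 changes of -0.20 and -0.21 in the 2 stages between did not pass. As a result PDK1 rose from 18.1 and 21.8% of the summed TPM of PDK1 and PDK2 to 71.3 and 68.4% in primary cells. The same share went from 45.7 and 41.5% to 66.6 and 69.1% in immortalized cells, from 30.8 and 27.6% to 55.3 and 50.7% in transformed cells and from 43.9 and 50.5% to 68.2 and 67.2% in metastasizing cells. The groups were apart in every stage. PDK3 was at most 2.46 TPM and was tested in the last 2 stages only, where it did not pass, and PDK4 was at most 0.437 TPM and was not tested.

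The pyruvate dehydrogenase complex itself moved little and not in 1 direction. PDHA1, its E1 alpha subunit, rose in immortalized cells (from 97.04 and 92.1 TPM to 132 and 139.7 TPM, log2 0.52, adjusted p = 0.00258) and fell in transformed cells (from 229 and 248 TPM to 155 and 139 TPM, log2 -0.69, adjusted p = 0.000379). PDHB, the E1 beta subunit, fell in primary cells (from 127 and 118 TPM to 88.4 and 91.95 TPM, log2 -0.44, adjusted p = 0.00296). DLAT, the E2 subunit, did not pass in any stage. PDP1, a phosphatase that reactivates the complex, rose in transformed cells (from 18.7 and 20.8 TPM to 37.6 and 39.6 TPM, log2 0.95, adjusted p = 0.00119). Its log2 changes of 0.20, 0.30 and 0.14 in the other stages did not pass, and the test of a difference among the stages missed the threshold (limma F-test, adjusted p = 0.0339).

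MPC1 and MPC2 form the carrier that takes pyruvate into mitochondria. MPC1 was at 35.5 and 43.5 TPM at atmospheric and 16.6 and 21.8 TPM at 3% oxygen in metastasizing cells, and each library at 3% oxygen was below both others (log2 fold change -1.03 ± 0.15 SE, adjusted p = 0.000713). It fell nearly as much in transformed cells (from 38.5 and 36.8 TPM to 17.9 and 21.3 TPM, log2 -0.93, adjusted p = 0.00102). In immortalized cells the change was -0.53 and missed the threshold (adjusted p = 0.0238). MPC2 did not pass in any stage.

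Of the 4 members that join glucose to glycogen, PGM1, GBE1 and GYS1 rose in primary cells and PYGL did not pass. PGM1, which interconverts glucose 1- and 6-phosphate, was at 33.6 and 35.5 TPM at atmospheric and 72.3 and 72.01 TPM at 3% oxygen in primary cells (log2 fold change 1.05 ± 0.20 SE, adjusted p = 0.00392), a call lost without any 1 of the 4 libraries (adjusted p from 0.0201 to 0.0323). It also passed in transformed cells (from 40.9 and 40.4 TPM to 71.5 and 80.3 TPM, log2 0.89, adjusted p = 0.00672). GBE1, the glycogen branching enzyme, was at 51.5 and 52.8 TPM at atmospheric and 135 and 119 TPM at 3% oxygen in transformed cells (log2 fold change 1.27 ± 0.10 SE, adjusted p = 1.91e-05). It rose in each of the other stages as well, by 0.64 (adjusted p = 0.00132) in primary, 0.67 (adjusted p = 0.000984) in immortalized and 0.44 (adjusted p = 0.00868) in metastasizing cells on the log2 scale. GYS1, glycogen synthase of muscle and most tissues, rose in primary cells (from 31.6 and 35.97 TPM to 70.2 and 60.3 TPM, log2 0.94, adjusted p = 0.00386). After transformation its levels were lower at 3% oxygen without passing, with a log2 change of -0.48 (adjusted p = 0.0604) in transformed cells and -0.70 (adjusted p = 0.0153) in metastasizing cells, where it was at 59.3 and 60.04 TPM at atmospheric and 32.9 and 40.4 TPM at 3% oxygen. Its oxygen effect differed among the 4 stages (limma F-test, adjusted p = 0.00148). PYGL, which releases glucose from glycogen, passed in no stage.

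The sequence just before the start of 1 transcript of each gene, a place that can lie inside the gene, was searched for the core of the hypoxia response element. In each gene the 250 bases before the start of the transcript with the highest mean TPM were read from GRCh37 and searched for ACGTG and GCGTG on both strands, where overlapping matches count once. Of the 38 members, 24 held at least 1 match (63.2%), beside 54.7% of 13143 genes searched in the same way. Matches to ACGTG alone were present in 15 members (39.5%), beside 22.3%. Of the 13 members called higher in any stage, 8 held a match, and of the other 25 members 16 did, a similar share. Of the called members whose windows overlap no annotated exon, 3 are printed 5′ to 3′ on the strand of the gene, with the matches in capitals. The ALDOC window lies at chr17:26903967-26904216 (minus strand), that of PGM1 at chr1:64058832-64059081 (plus) and that of GBE1 at chr3:81792781-81793030 (minus). The GBE1 window lies inside that gene, which spans chr3:81538854-81810796.
ALDOC: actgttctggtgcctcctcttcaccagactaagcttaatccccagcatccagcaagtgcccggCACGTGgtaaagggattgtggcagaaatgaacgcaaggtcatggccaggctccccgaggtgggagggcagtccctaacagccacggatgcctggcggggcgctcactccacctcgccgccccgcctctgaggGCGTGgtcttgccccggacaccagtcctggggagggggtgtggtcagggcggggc
PGM1: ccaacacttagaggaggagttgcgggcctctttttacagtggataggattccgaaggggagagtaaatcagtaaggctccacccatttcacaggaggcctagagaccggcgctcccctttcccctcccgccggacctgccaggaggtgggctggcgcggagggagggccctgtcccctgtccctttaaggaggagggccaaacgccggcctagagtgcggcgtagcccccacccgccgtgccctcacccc
GBE1: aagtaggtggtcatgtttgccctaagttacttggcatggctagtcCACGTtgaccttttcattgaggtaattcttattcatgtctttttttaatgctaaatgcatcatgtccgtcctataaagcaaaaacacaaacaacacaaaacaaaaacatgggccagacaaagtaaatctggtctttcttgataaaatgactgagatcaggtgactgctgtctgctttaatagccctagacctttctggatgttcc
ALDOC holds 2 places with a match, GBE1 1 and PGM1 none. For the called members whose windows overlap an annotated exon, 25 bases around the match nearest the start are given for ENO2 (chr12:7023616-7023640, plus, 118 bases before the start), HK2 (chr2:75061196-75061220, plus, 48 bases), PDK1 (chr2:173420538-173420562, plus, 231 bases) and PDK2 (chr17:48172577-48172601, plus, 164 bases), the last being a gene that fell.
ENO2: ccgcgctcgtACGTGcgcctccgcc
HK2: tggGCGTGcgCACGTcactgatccg
PDK1: ggacggccgaCACGCtcaccccaca
PDK2: gggggaagcCACGTGccggggcgga
PFKFB4, PGAM1, LDHA and MPC1 also hold a match, and SLC2A3, TPI1, PGK1 and PFKP none in this window. The PGK1 window precedes PGK1-205, a transcript without a defined coding sequence. Windows before other transcripts, such as the coding PGK1-201, were not searched, so a missing match says nothing about them.

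Some members also differed between stages before oxygen was lowered, so the oxygen changes above start from unequal levels. The shares of tested members called, 8.33%, 22.2% and 5.41% in the order below, lay below or near those of all genes. These counts are therefore no result about the members as a set. From primary to immortalized cells at atmospheric oxygen 3 of 36 tested members were called (background 12.2%), 2 higher (5.98%) and 1 lower (6.26%). ALDOC rose from 8.17 and 6.72 TPM to 29.03 and 35.4 TPM, HK1 from 91.5 and 101 TPM to 224 and 232 TPM, and PFKP fell from 106 and 126 TPM to 50.6 and 59.2 TPM. From immortalized to transformed cells 8 of 36 were called (background 24.3%), 6 higher (13.2%) and 2 lower (11.2%). PFKP (log2 1.67), ENO1 (1.12), ENO2 (1.28), PDHA1 (1.33), DLAT (1.06) and PYGL (1.95) rose, and ALDOC (-1.42) and GBE1 (-1.07) fell. PYGL went from 21.3 and 18.2 TPM to 78.98 and 76.6 TPM, the largest rise of this step among the members. From transformed to metastasizing cells 2 of 37 were called (background 4.12%), both higher (2.40%). SLC2A3 went from 21.4 and 23.5 TPM to 51.4 and 60.8 TPM (log2 1.30, adjusted p = 3.08e-05) and ALDOC from 10.7 and 12.8 TPM to 72.1 and 67.1 TPM (log2 2.52, adjusted p = 0.000606). Both had risen at 3% oxygen in transformed cells, a comparison that shares the same transformed libraries at atmospheric oxygen.

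Whether the oxygen effect itself differed between stages was tested directly, in contrasts that share the libraries of the stages between. Over the 4 stages it differed for 18 of 37 tested members, against 25.9% of all genes (limma F-test). Between primary and immortalized cells 2 members were called (background 1.86%), both lower (1.06%). The effect was smaller in immortalized cells for HK2 (difference of log2 changes -1.30 ± 0.24 SE, adjusted p = 0.00901) and ENO2 (-1.46 ± 0.13 SE, adjusted p = 0.000193). Between immortalized and transformed cells 4 were called (10.8% of the members tested, background 12.0%), 2 higher (6.13%) and 2 lower (5.84%). That share lay below the background and was no result about these genes. The effect was larger in transformed cells for ALDOC (2.21 ± 0.48 SE, adjusted p = 0.00526) and ENO2 (1.12 ± 0.13 SE, adjusted p = 0.000145), and lower there for GPI (-1.08 ± 0.18 SE, adjusted p = 0.00138) and PDHA1 (-1.21 ± 0.13 SE, adjusted p = 0.000111). TPI1 and ENO1 differed the same way as GPI by less than 2-fold (differences -0.86 and -0.58, adjusted p = 0.000498 and 0.00312). Between transformed and metastasizing cells 6 were called (background 8.47%), all lower in metastasizing cells (5.62%). They were SLC2A1 (difference -1.07, adjusted p = 0.00757), SLC2A3 (-1.71, adjusted p = 4.96e-05), HK2 (-1.15, adjusted p = 0.00581), PFKFB4 (-1.68, adjusted p = 0.00716), ALDOC (-2.50, adjusted p = 0.00373) and ENO2 (-1.30, adjusted p = 0.000109).

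The metastasizing stage rests on 2 libraries at 3% oxygen that differ from each other. There 14 of 37 members differed by more than 1.5-fold between the replicates, beside 0 to 3 members in each of the other groups, and 28.2% of all genes did so, beside 5.07% to 11.5%. Without replicate a of this group 0 members were called in the stage, without replicate b 3 were, and without replicate b at atmospheric oxygen 0 were. The 6 differences from transformed cells became 5 without replicate a and 9 without replicate b. When only the 4 metastasizing libraries were fitted, so that their own spread set the error, neither MPC1 (adjusted p = 0.0708) nor PFKFB4 (adjusted p = 0.152) was called.

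**Figure D5:**
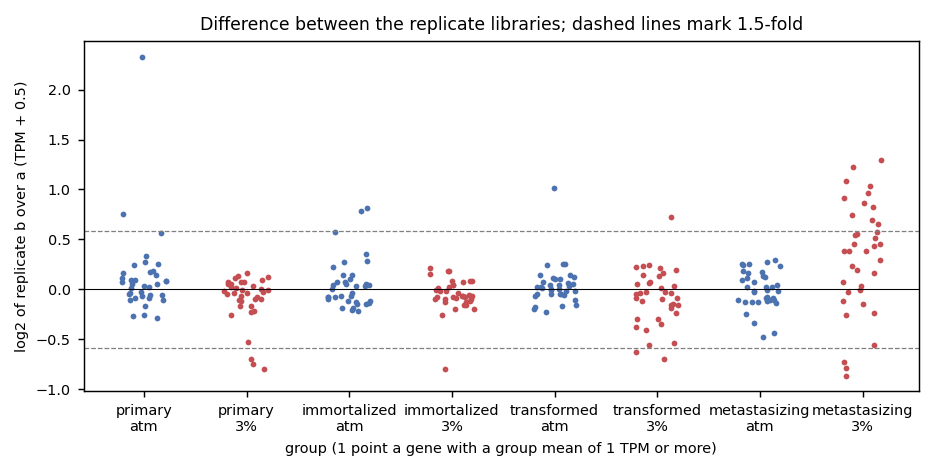
Log2 ratio of replicate b over replicate a (TPM + 0.5) for members with a group mean of at least 1 TPM, in the 8 groups; each point is a gene, dashed lines mark 1.5-fold, blue is atmospheric and red 3% oxygen. In the metastasizing group at 3% oxygen 14 of 37 points lie beyond the lines, and the highest point, in primary cells at atmospheric oxygen, is PFKFB3.

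Around these members, 70 further genes of glucose transport, the pentose phosphate branch, glycogen and pyruvate handling were counted. At 3% oxygen 3 of 44 tested were called in primary cells, all higher (2.78% of all genes were), and 2 of 43 in immortalized cells, both lower (2.78% of all genes were called lower). In transformed cells 1 of 42 was called higher (4.90%) and 2 lower (2.58%), and in metastasizing cells 2 of 43 were called higher (3.06%) and 2 lower (4.60%). TXNIP, whose protein restrains glucose uptake, had the largest change and turned direction. It was at 29.5 and 22.2 TPM at atmospheric and 82.2 and 71.6 TPM at 3% oxygen in primary cells (log2 fold change 1.57 ± 0.17 SE, adjusted p = 0.000137). In transformed cells it was at 28.7 and 25.5 TPM at atmospheric and 1.78 and 1.35 TPM at 3% oxygen (log2 fold change -3.74 ± 0.17 SE, adjusted p = 8.93e-07), the opposite direction in both libraries. In immortalized cells TXNIP went from 49.8 and 50.8 TPM to 98.6 and 102 TPM. In metastasizing cells it went from 38.2 and 43.6 TPM to 29.9 and 38.8 TPM, which overlapped. The effect differed between immortalized and transformed cells by -4.73 ± 0.24 SE, adjusted p = 3.86e-06. PHKA1, a phosphorylase kinase subunit, rose in primary (from 2.63 and 2.20 TPM to 6.67 and 6.57 TPM, log2 1.29) and metastasizing cells (from 0.0644 and 0.0958 TPM to 2.14 and 2.81 TPM, log2 2.35), the latter from near 0. SLC2A12 fell in immortalized (from 4.93 and 4.45 TPM to 1.45 and 1.27 TPM, log2 -1.48) and metastasizing cells (from 3.11 and 2.75 TPM to 0.161 and 0.566 TPM, log2 -2.03). Of the others, those named by size were SLC16A7, a pyruvate and lactate transporter that rose in transformed cells (from 6.67 and 4.96 TPM to 20.9 and 16.7 TPM, log2 1.61), G6PC3, a glucose 6-phosphatase that fell there (from 105 and 95.96 TPM to 36.8 and 35.8 TPM, log2 -1.45), EMB, a chaperone of lactate transporters, which rose in metastasizing cells (from 0.401 and 0.485 TPM to 1.64 and 3.42 TPM, log2 1.62), and PGM2, which rose in primary cells (from 27.4 and 28.1 TPM to 65.9 and 69.3 TPM, log2 1.27). Another 10 textbook hypoxia targets were listed beside the members, of which 9 were tested. At 3% oxygen 1 of the 9 was called higher in primary cells (2.78% of all genes), 2 in immortalized cells (2.13%), 7 in transformed cells (4.90%) and 1 in metastasizing cells (3.06%).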

How the data were processed

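RNA of the 16 libraries was poly-A selected and sequenced as stranded libraries. The authors quantified transcripts with kallisto 0.42.1 and deposited TPM values per transcript and library, scaled so that each library has the same total, with replicates not pooled. Genes were taken from a GENCODE annotation on the GRCh37 genome assembly, chosen for the summing. Of the 180253 transcripts, 151453 matched its names and were summed per gene, or 88.2% to 90.1% of each library's total. The 28800 others were left out. TPM keep no read counts, so no interval from depth is given. Values were compared as log2(TPM + 0.5) with limma 3.58.1 in R 4.3.3, with 1 coefficient for each of the 8 groups, an intensity trend, 8 residual degrees of freedom and Benjamini-Hochberg adjustment over all protein-coding genes tested, so fold changes of low genes are understated. Genes were tested with a group mean of at least 1 TPM. The procedure was tested on simulated data. The letters a and b of the replicates were not taken to pair plates, since the labels do not say whether they do. The members and lists were chosen with earlier results of these data known. Every member is named, called members with each library, and of the other pathway genes the 8 with the largest called changes, of which 1 is not reported here. Alternatives were other pseudocounts, filters, scalings, groups, transcripts and left-out libraries. Tables were handled with Python 3.11.15 and pandas 2.3.3.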

Additional observations from a re-analysis of the deposited data

Results flagged for a closer look

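For 8 members the effect of 3% oxygen differed between successive stages by more than 2-fold, in 12 tests of the difference itself (limma, adjusted over all protein-coding genes). Of the members tested, 5.56%, 10.8% and 16.2% were called in the order below, beside 1.86%, 12.0% and 8.47% of all genes. The share between immortalized and transformed cells lay below that of all genes and was no result about the members. Between primary and immortalized cells the difference of log2 effects was -1.30 for HK2 and -1.46 for ENO2, whose own changes went from 1.64 to 0.35 and from 2.04 to 0.58. Between immortalized and transformed cells the differences were -1.08 for GPI, 2.21 for ALDOC, 1.12 for ENO2 and -1.21 for PDHA1. PDHA1 changed direction, from 0.52 to -0.69, each with an adjusted p under 0.01 and a size under 2-fold. Between transformed and metastasizing cells they were -1.07 for SLC2A1, -1.71 for SLC2A3, -1.15 for HK2, -1.68 for PFKFB4, -2.50 for ALDOC and -1.30 for ENO2. These last 6 rest on the metastasizing libraries at 3% oxygen, whose replicates differed by more than 1.5-fold for 14 of 37 members. ALDOC stood there at 39.1 and 97.1 TPM and PFKFB4 at 9.17 and 20.1 TPM, while ENO2 agreed at 80.8 and 80.7 TPM.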

How the results depend on the processing

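The counts of members called at 3% oxygen stayed within 1.5 times the main count in primary, immortalized and transformed cells under every alternative run, as did the counts between successive stages at atmospheric oxygen and those of unequal effects between immortalized and transformed cells. In metastasizing cells the 2 calls became 1 with no filter on low values, with no intensity trend and with non-coding genes added, 0 with median-ratio rescaling, only the groups compared, only protein-coding transcripts or only the leading transcript, and 0 to 3 when 1 library was left out. The 2 differences between primary and immortalized cells became 1 with a pseudocount of 0.1, no filter, median-ratio rescaling, no intensity trend, all genes or only the leading transcript, and were 1 to 2 when 1 library was left out. The 6 differences between transformed and metastasizing cells became 2 with only the groups compared and 2 to 9 without 1 library. The members whose oxygen effect differed among the 4 stages numbered 11 to 27 without 1 library, and the PKM transcripts called 0 to 2. The causes were not tested. The alternatives on transcripts, all those on PFKFB3 and ALDOA, the crossed pairing and the run without both metastasizing libraries at 3% oxygen were chosen after seeing the data, and the last left 11, 4 and 5 members called in the other stages.

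Of the 22 calls of single members at 3% oxygen, 11 kept an adjusted p under 0.01 under every alternative run. These were HK2, ALDOC, TPI1, ENO2 and PDK1 in primary cells, TPI1 and LDHA in immortalized cells and SLC2A3, ALDOC, ENO2 and GBE1 in transformed cells. Only changes that had not passed reversed. ALDOC in immortalized cells was -0.0092 after median-ratio rescaling, -0.035 with its leading transcript alone and -0.029 to 0.25 without 1 library. With leading transcripts PFKP was -0.026 and ALDOC 0.084 in metastasizing cells. Without 1 library PGAM1 ranged from -0.088 to 0.13 in transformed cells. In metastasizing cells HK2 ranged from -0.50 to 0.055, ALDOC from -0.82 to 0.48, TPI1 from -0.014 to 0.22, PGK1 from -0.16 to 0.49, PGAM1 from -0.88 to 0.082, LDHA from -0.26 to 0.29 and PGM1 from -0.63 to 0.24. PFKFB3 in primary cells ranged from -1.20 to 1.13 without 1 library, with adjusted p under 0.01 at both ends, and was 0.91 with its leading transcript. ALDOA ranged from -0.053 to 0.52 in immortalized, -0.054 to 0.16 in transformed and -0.54 to 0.37 in metastasizing cells without 1 library, and in the last was 0.044 after median-ratio rescaling and 0.49 with its leading transcript.

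A replicate block on the letters a and b left the counts of members called at 11, 4, 5 and 2 in the 4 stages and the members with an unequal oxygen effect at 16 in place of 18. Deviations of same-letter plates did not go together, with correlations of -0.15, -0.10, -0.08 and -0.10 over 13146 genes, and exchanging the letters at 3% oxygen in primary cells left 11 calls. Among the 83 changes of single members retested, 78 kept their direction and side of the threshold under the block.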
